A study of Homo sapiens with 16 samples.

Results

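Sorafenib-resistant Huh7 and Hep3B cells were each compared with DMSO cells of the same line, and the response of Huh7 was then set against that of Hep3B. The measurement was the difference between the lines: the mean log2 change of IR and CR cells against DMSO cells in Huh7, minus the same change in Hep3B. It was taken on the scale log2(CPM + 1), where CPM is the read count of a gene scaled to a common library total, and a positive difference means a higher change in Huh7. The genes were those with at least 5 CPM in all 4 DMSO libraries, which left 10009 of the 26258 genes in the table. A gene that is off in DMSO cells and comes on in resistant cells is therefore outside this set. Of the 16 libraries of the series, 12 entered the comparison.

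Huh7 and Hep3B are human hepatocellular carcinoma lines. IR cells were selected under rising doses of Sorafenib, and CR cells under a dose that was high from the start. The labels give 7 µM Sorafenib for the IR and CR libraries of both lines and name the DMSO libraries as untreated, so resistance and the presence of the drug cannot be told apart in these groups. Each of the 6 groups (Huh7 DMSO, Huh7-IR, Huh7-CR, Hep3B DMSO, Hep3B-IR and Hep3B-CR) had 2 libraries, and no source used here says that these came from separate cultures, so the p-values measure the spread between these samples. Each resistant population was derived from 1 line under 1 regimen, so a change common to its libraries describes that population, and in bulk RNA fewer cells of a type and less RNA per cell cannot be told apart.

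Sorafenib is a multikinase inhibitor that blocks RAF kinases and several receptor tyrosine kinases, which lie upstream of the ERK cascade. Active ERK induces transcription factors of the ETS family together with feedback inhibitors such as the Sprouty proteins and the dual-specificity phosphatases, so the RNA of these genes is commonly used as a readout of the pathway. Both lines keep part of the hepatocyte programme in culture, among it plasma proteins, fatty acid oxidation and epithelial junctions.

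The libraries held between 46613302 and 76860251 counted reads. ALB, the plasma albumin of hepatocytes, lay between 9739.5 and 19701 CPM in the 4 DMSO libraries, so the hepatocyte label of both lines was borne out by this marker. Of 10 markers of blood, endothelial and stromal cells, 2 stayed under 1 CPM in all 12 libraries. Their summed level was 328 to 484 CPM in Huh7 DMSO and 143 to 324 CPM in resistant Huh7 cells. In Hep3B it was 32.0 to 44.7 CPM in DMSO and 83.8 to 123 CPM in resistant cells. The sum thus fell in Huh7 and rose in Hep3B, but the fall came from LUM, which made up most of the Huh7 DMSO sum. The part of these markers in the results was not tested. The 3 markers above 10 CPM were LUM, CD68 and COL1A1. LUM, a matrix proteoglycan, was at 308 to 476 CPM in Huh7 DMSO and 31.9 to 231 CPM in resistant Huh7 cells. CD68, a macrophage marker that encodes a glycoprotein of lysosomes and endosomes, was at 3.75 and 10.8 CPM in Huh7 DMSO and 46.3 to 71.9 CPM in resistant Huh7 cells, against 18.2 and 32.9 CPM and 27.6 to 51.2 CPM in Hep3B. COL1A1, a fibrillar collagen, was at 0.182 to 1.97 CPM in DMSO and 11.5 to 66.2 CPM in resistant cells, while the leukocyte and T cell markers PTPRC and CD3E did not exceed 1.32 CPM. The DMSO libraries of a line also differed: replicate 2 was above replicate 1 for 13 of 14 hypoxia-induced genes in Huh7, with a median of 1.21 on the log2 scale, and for 14 of 14 in Hep3B, with a median of 0.61. The part of this in the results was not tested, and values without either library stand beside the genes they alter.

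A gene was called when its change or difference was at least 0.58 on the log2 scale with an adjusted p under 0.05 in limma. Where a pair of changes is given, the first is that of Huh7 and the second that of Hep3B, both on the log2 scale. In Huh7, 1955 genes rose (19.5%) and 1862 fell (18.6%), and in Hep3B 1528 rose and 1535 fell (15.3% each). The difference between the lines was called for 2815 genes, 1391 with the higher change in Huh7 (13.9%) and 1424 with the lower change (14.2%). Across genes the changes of the lines had a Pearson r of 0.59, given as a description, since genes are not independent replicates. The median difference was 0.01 and its median SE 0.23.

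Most called differences came with a called change in 1 line only. Only the Huh7 change was called for 1182 of the 2815 genes and only the Hep3B change for 699. Among the 1706 genes called in both lines, 747 rose in both, 803 fell in both, and 156 moved in opposite ways. These 156 were 1.56% of the genes tested: 60 rose in Huh7 and fell in Hep3B (0.599%), and 96 fell in Huh7 and rose in Hep3B (0.959%). The 4 resistant libraries lay beyond both DMSO libraries in each line for 115 of the 156, against 541 of all genes (5.41%) whose libraries lay apart in opposite ways. IR and CR cells had the same sign in each line for 149 of them. The genes were chosen by called changes in these same libraries, taken as the mean of IR and CR cells. The counts of 115 and 149 therefore both follow in part from the choice.

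**Figure D1:**
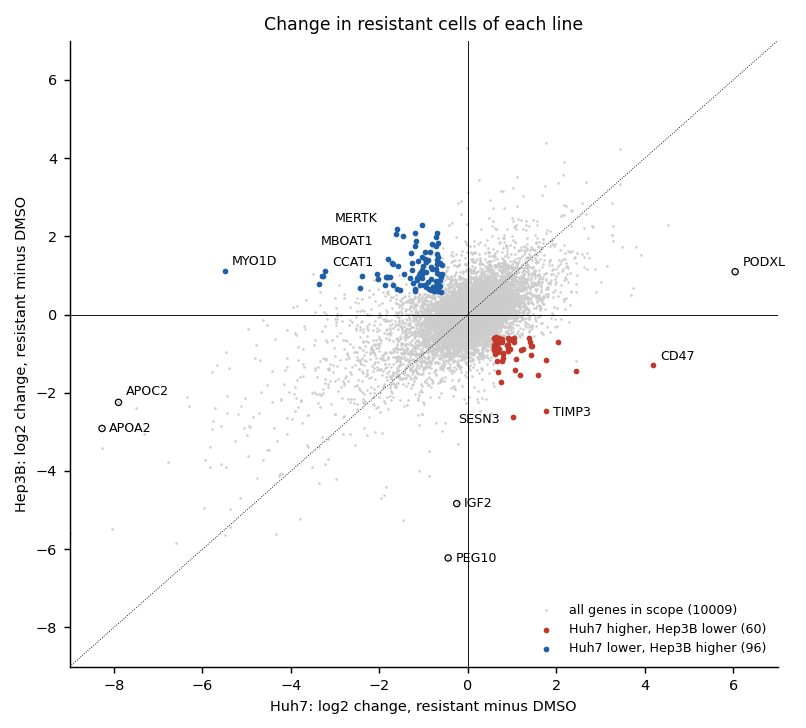
Change of each gene in resistant against DMSO cells, Huh7 on the x axis and Hep3B on the y axis, both in log2(CPM + 1), for 10009 genes. The 60 genes that rose in Huh7 and fell in Hep3B lie at the lower right and the 96 with the reverse pattern at the upper left, while the cloud of other genes is drawn out along the rising diagonal (dotted).

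The 156 genes were next tried against another reference. With parental cells in place of DMSO cells, 137 kept both signs and 63 were again called in opposite ways. With IR cells alone 120 were called so, and with CR cells alone 69. Without Hep3B DMSO replicate 1 the genes that rose in Huh7 and fell in Hep3B numbered 38, and without Hep3B DMSO replicate 2 they numbered 39.

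The 12 leading genes of each orientation were ranked by the smaller of the changes in size. Only opposite genes whose resistant and DMSO libraries did not overlap in either line were ranked. Their lack of overlap therefore follows from this choice. TIMP3, a matrix-bound inhibitor of metalloproteases (chr22:33197691-33259028, GRCh37 as for all gene positions), led the genes that rose in Huh7 and fell in Hep3B. It stood at 55.5 and 48.8 CPM in Huh7 DMSO, 160.0 and 132 in Huh7-IR and 228 and 212 in Huh7-CR cells. The Hep3B levels were 17.7 and 20.3 CPM in DMSO, 0.0937 and 0.0711 in IR and 12.5 and 9.98 in CR cells. All Huh7 resistant libraries were above their DMSO libraries and all Hep3B ones below, and the 2 Hep3B-IR values rest on 7 and 5 reads. The change was 1.76 in Huh7 and -2.46 in Hep3B, a difference of 4.22 (SE 0.30, limma adjusted p = 1.23e-06), and in Hep3B it came mostly from IR cells, at -4.20 against -0.71 in CR cells. Against parental cells the Hep3B change was -0.56 with an adjusted p of 0.0541, so the opposite call was lost there.

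CD47, the surface ligand that restrains phagocytosis by macrophages (chr3:107761938-107810709), started low in Huh7 and high in Hep3B. Its levels were 5.70 and 6.52 CPM in Huh7 DMSO, 148 and 149.9 in Huh7-IR and 112 and 109 in Huh7-CR cells. In Hep3B they were 110.3 and 99.5, then 40.5 and 58.7, then 36.7 and 35.9 CPM in the same order. The resistant cells of Huh7 thus ended above those of Hep3B, where the DMSO cells had stood far below. The changes of 4.19 and -1.29 differed by 5.48 (SE 0.24, limma adjusted p = 3.19e-08), among the 4 largest differences of all genes.

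RARB, a nuclear receptor for retinoic acid (chr3:24729378-25639423), was almost level between the lines in DMSO cells, at 7.65 and 7.90 CPM in Huh7 and 8.65 and 7.29 in Hep3B. It reached 19.9 to 34.4 CPM in the resistant Huh7 libraries and dropped to 1.15 to 3.38 CPM in those of Hep3B. The changes were 1.58 and -1.56 (difference 3.14, SE 0.37, limma adjusted p = 6.70e-05). PTPRG, a receptor-type tyrosine phosphatase, moved from 16.9 and 9.88 CPM to 23.6 to 34.2 in Huh7 and from 66.8 and 63.2 to 17.5 to 32.6 in Hep3B. Both genes kept their Hep3B call against parental cells and lost the Huh7 call, at 0.50 for RARB and 0.39 for PTPRG.

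SESN3, a sestrin that restrains mTORC1 under stress, stood at 77.5 and 61.2 CPM in Huh7 DMSO and 78.3 to 243 in resistant Huh7 cells, against 95.8 and 64.1 and 7.49 to 17.7 in Hep3B. Its changes were 1.01 and -2.62, and without Huh7 DMSO replicate 2 the Huh7 change was 0.84 with an adjusted p of 0.0947, and in IR cells alone 0.55 with an adjusted p of 0.197. JCAD, a protein of endothelial cell junctions, changed by 1.76 in Huh7 and -1.15 in Hep3B, and CELSR2, an atypical cadherin of planar cell polarity, by 1.43 and -1.03. CELSR2 lost its Hep3B call without Hep3B DMSO replicate 2 (-0.89, adjusted p = 0.0600).

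The other 5 of the 12 leading genes of this orientation covered signalling, protein turnover and RNA. GNAI2, the alpha subunit of an inhibitory G protein, changed by 1.20 in Huh7 and -0.90 in Hep3B. RNF145, a ubiquitin ligase of the endoplasmic reticulum that acts in sterol control, changed by 1.25 and -0.88, and FBXO10, an F-box component of a ubiquitin ligase, by 0.93 and -0.89. Against parental cells the FBXO10 change in Hep3B was -0.31 with an adjusted p of 0.136. CAPRIN2, an RNA-binding protein, moved by 1.43 and -0.80, and TARBP1, related to RNA methyltransferases, by 0.80 and -1.12. Without 1 of 4 Hep3B libraries in turn (both DMSO, IR replicate 1 and CR replicate 2) CAPRIN2 lost its Hep3B call, with changes from -0.97 to -0.57, and against parental cells that change was 0.12, so its sign turned. TARBP1 lost its Huh7 call without Huh7 DMSO replicate 2, at 0.48.

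Among the genes that fell in Huh7 and rose in Hep3B, MBOAT1 and MERTK led. MBOAT1 (chr6:20099915-20212700), an acyltransferase of the endoplasmic reticulum that remodels phospholipids, was at 16.3 and 15.1 CPM in Huh7 DMSO, 3.88 and 4.05 in Huh7-IR and 4.76 and 5.07 in Huh7-CR cells. In Hep3B it was at 13.2 and 9.88 CPM in DMSO, 40.5 and 53.8 in IR and 51.3 and 59.4 in CR cells. The DMSO cells of the lines held similar levels, and every resistant Hep3B library was then above every resistant Huh7 library. The changes were -1.62 and 2.06 (difference -3.68, SE 0.23, limma adjusted p = 4.14e-07).

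MERTK (chr2:112656184-112787138), a receptor tyrosine kinase of the same family as AXL that is best known for the clearance of dead cells, was at 13.2 and 14.3 CPM in Huh7 DMSO, 8.47 and 2.51 in Huh7-IR and 3.15 and 2.96 in Huh7-CR cells. In Hep3B it stood at 6.10 and 7.84 CPM in DMSO and rose to 33.1 and 26.3 in IR and 37.9 and 45.1 in CR cells. The first Huh7-IR library fell less than the other resistant ones. That none overlapped with DMSO follows from the choice of leading genes. The changes were -1.61 and 2.18 (difference -3.79, SE 0.42, limma adjusted p = 4.16e-05). AXL itself had at most 0.603 CPM in DMSO cells and so was not among the genes described, and it reached 45.1 to 214 CPM in resistant cells of both lines.

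MYO1D, an unconventional myosin (chr17:30819540-31204195), nearly disappeared in resistant Huh7 cells. It was at 62.2 and 103 CPM in Huh7 DMSO, 1.23 and 0.493 in Huh7-IR and 0.850 and 0.707 in Huh7-CR cells, with 23 reads in the lowest library. In Hep3B it went from 75.2 and 77.8 CPM in DMSO to 151 and 169 in IR and 151 and 201 in CR cells. The changes of -5.50 and 1.12 gave the lowest difference of all genes, -6.61 (SE 0.30, limma adjusted p = 4.93e-08). CCAT1, a long noncoding RNA, changed by -3.23 and 1.10, with 2 and 21 reads in the Huh7-IR libraries, and its Hep3B change had an adjusted p of 0.0557 in edgeR.

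The remaining leading genes of this orientation lay between -1.72 and -1.12 in Huh7, apart from AQP3, and between 1.14 and 2.01 in Hep3B. PITPNM3, of a family of phosphatidylinositol transfer proteins, changed by -1.46 and 2.01, and GMDS, the first enzyme of GDP-fucose synthesis, by -1.20 and 1.74. CCN2, a matricellular protein induced by YAP and TGF-beta, went from 461 and 458 CPM to 154 to 239 in Huh7 and from 173 and 189 to 195 to 872 in Hep3B. MECOM, a zinc finger transcription factor, changed by -1.12 and 1.36, CCDC68 by -1.72 and 1.31, and SEL1L3 by -1.26 and 1.32. AQP3, a channel for water and glycerol, changed by -1.81 and 1.42. It lost one of its calls without Huh7 DMSO replicate 1 or without any 1 of 5 Hep3B libraries (all but CR replicate 1), with Hep3B changes from 0.96 to 1.72. In CR cells alone the Hep3B changes of CCN2 and JCAD were 0.41 and -0.31, and in IR cells alone the Huh7 change of PITPNM3 was -0.53, none of them called. Against parental cells the Hep3B change of PITPNM3 was 0.61, with no call.

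**Figure D2:**
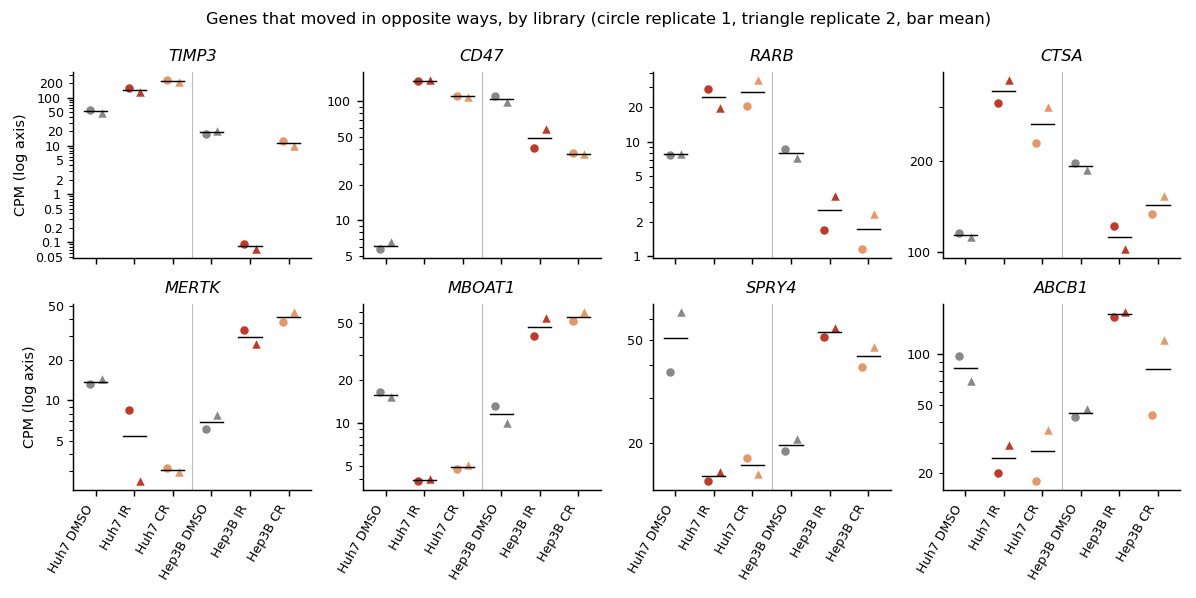
CPM on a log axis of 8 genes with opposite calls in each of the 12 libraries, by group, with a circle for replicate 1, a triangle for replicate 2 and a bar for the mean. In the upper panels (TIMP3, CD47, RARB, CTSA) the resistant Huh7 libraries are above DMSO and the resistant Hep3B libraries below, and in the lower panels (MERTK, MBOAT1, SPRY4, ABCB1) the pattern is turned around, with 1 Hep3B-CR library of ABCB1 at the DMSO level.

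The largest differences were mostly of degree. PEG10, an imprinted gene derived from a retrotransposon (chr7:94285637-94299007), fell in Hep3B from 2017 and 1872 CPM in DMSO to 1.97 and 2.43 in IR and 189 and 236 in CR cells. In Huh7 it was at 909.5 and 625 CPM in DMSO and 387 to 882 in resistant cells, whose libraries overlapped with DMSO. The change in Hep3B was -6.22 and that in Huh7 -0.45 (difference 5.78, limma adjusted p = 1.46e-06). IGF2, an imprinted growth factor whose locus overlaps the INS-IGF2 readthrough gene, behaved alike: 3689 and 4450.3 CPM in Hep3B DMSO against 85.3 to 292 in resistant Hep3B cells, with 359 and 822 CPM and 273 to 1210.4 in Huh7 (difference 4.58).

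PODXL, the sialomucin podocalyxin, rose in both lines, by 6.04 in Huh7 and 1.09 in Hep3B. Its levels went from 6.91 and 6.38 to 416 to 753 CPM in Huh7 and from 5.72 and 5.02 to 8.20 to 19.5 CPM in Hep3B. Apolipoproteins of very low density and high density lipoproteins fell in both lines and further in Huh7. APOA2 changed by -8.27 and -2.91, and APOC2 by -7.90 and -2.25. APOC4-APOC2, a readthrough gene that shares its reads with APOC2, changed by -7.90 and -2.24, and the resistant Huh7 libraries held 2 to 22 reads of either.

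Functional lists were then described by their members among the 10009 genes. Of 76 lists, 9 had at least 3 opposite members of 1 orientation or medians of opposite sign that differed by at least 0.58 over 5 or more members, so the opposite medians given for them follow from that choice and carry no test. In 6 of the 9 the Huh7 median was below 0 and the Hep3B median above: fatty acid oxidation, transporters, ERK output, receptor tyrosine kinases, epithelial genes and keratins. In Wnt targets and NF-kB targets it was the reverse, and the lysosome list was taken for its opposite members. Over all 10009 genes the medians were 0.05 in Huh7 and 0.04 in Hep3B, with 13.9% and 14.2% called for a higher and a lower difference.

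**Figure D3:**
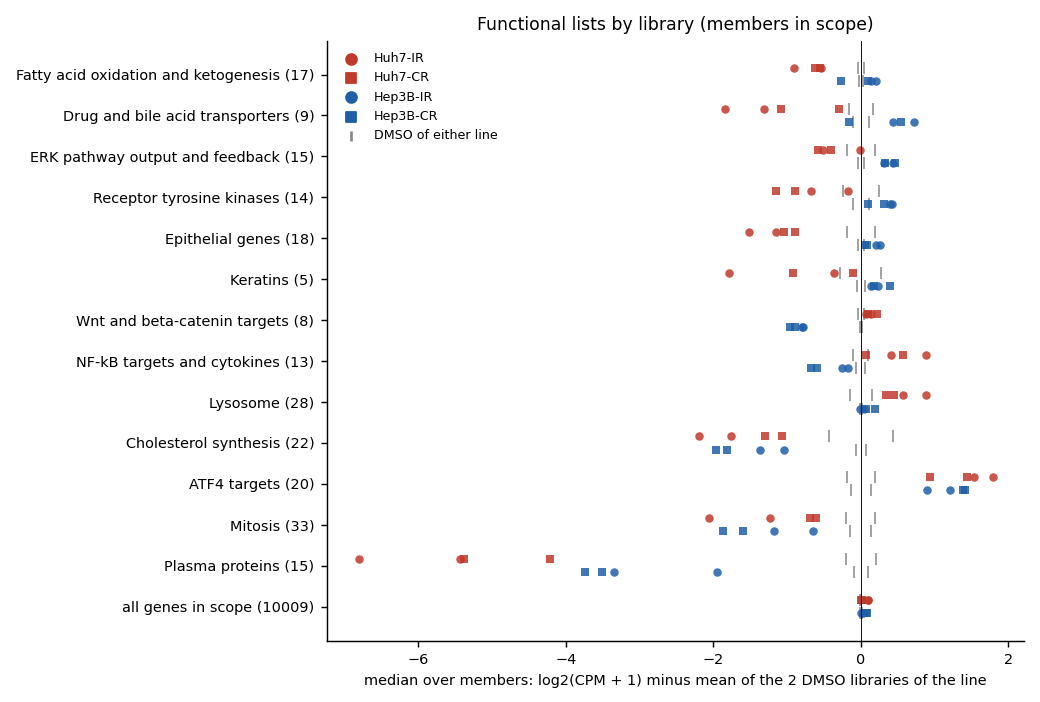
Median over list members of log2(CPM + 1) minus the DMSO mean of the line (x axis), in each library. Shown are the 9 lists, 4 lists that moved in the same direction in both lines and all 10009 genes. Red points are Huh7, blue points Hep3B and grey bars DMSO libraries. Epithelial genes lie between -1.52 and -0.90 in the 4 resistant Huh7 libraries and between 0.05 and 0.25 in those of Hep3B, while all genes stay within 0.1 of 0.

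Of 15 genes described that report ERK activity (of 20 listed), 7 fell and 4 rose in Huh7, while 2 fell and 6 rose in Hep3B. The difference was called lower for 8 and higher for 3. The medians were -0.26 and 0.41, and the median difference was -0.89. SPRY4, a Sprouty feedback inhibitor of the cascade (chr5:141689992-141706020), was at 37.6 and 63.9 CPM in Huh7 DMSO, 14.3 and 15.5 in Huh7-IR and 17.6 and 15.3 in Huh7-CR cells. Hep3B cells held 18.7 and 20.7 CPM in DMSO, 51.2 and 55.7 in IR and 39.3 and 47.05 in CR cells. SPRY4 is 1 of the leading genes, which were chosen without overlap in either line. Its changes of -1.59 and 1.24 differed by -2.83 (SE 0.28, limma adjusted p = 1.45e-05).

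DUSP5, a nuclear phosphatase of ERK, moved the same way, from 79.2 and 180.3 CPM to 43.3 to 83.4 in Huh7 and from 15.3 and 19.8 to 30.6 to 49.4 in Hep3B. Its changes were -1.02 and 1.23, though the Huh7 libraries overlapped. The call rested on the DMSO libraries: the Huh7 change was -0.43 without Huh7 DMSO replicate 2, the Hep3B change had an adjusted p of 0.0542 without Hep3B DMSO replicate 1, and against parental cells the Huh7 change was 0.10. ETV5, an ETS factor downstream of ERK that was chosen after its values were seen as the third opposite member, changed by -0.71 and 1.40.

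Other members fell in Huh7 and had no called change in Hep3B. ETV4, a close relative of ETV5, fell from 45.1 and 66.9 CPM to 6.47 to 14.1 in Huh7 and was at 24.03 and 32.7 in DMSO and 32.04 to 46.4 in resistant cells of Hep3B (changes -2.39 and 0.41, difference -2.80, limma adjusted p = 1.84e-05). DUSP6, the cytoplasmic ERK phosphatase, changed by -3.07 and -0.65, and SPRY1 by -2.42 and -0.19. In contrast SPRED1, MYC and CCND1, chosen here because they complete the count, had the higher change in Huh7, with differences of 0.83, 0.85 and 1.32. The list therefore did not move as 1 block, and its median difference was -0.54 without Huh7 DMSO replicate 2.

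Receptor tyrosine kinases pass growth factor signals to the cascades that Sorafenib blocks. Of 14 members described (of 26 listed) 8 fell and 2 rose in Huh7, 3 fell and 4 rose in Hep3B, and all 6 called differences were lower in Huh7. The medians were -0.80 and 0.36. FGFR3 went from 121 and 201 CPM to 4.04 to 10.2 in Huh7 and from 155 and 199.6 to 49.7 to 81.6 in Hep3B, so it fell in both lines and further in Huh7 (difference -2.97, SE 0.44, limma adjusted p = 3.26e-04).

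PDGFRA, a platelet-derived growth factor receptor, changed by -3.70 and -1.34, a difference of -2.36. IR cells gave -4.87 and -0.37 and CR cells -2.52 and -2.30, so that with CR cells alone the difference was -0.22 and was not called. INSR, the insulin receptor, changed by -1.24 in Huh7 and by 0.39 in Hep3B, where it was not called, and ERBB2, the partner receptor of the EGFR family, by -0.98 and 0.38. MERTK was the only member with opposite calls. The ERBB2 difference lost its call without any 1 of 6 libraries (Hep3B DMSO 1 and 2, Hep3B-IR 1, Hep3B-CR 2, Huh7 DMSO 2 and Huh7-CR 1), where it lay between -1.42 and -0.89, and with IR cells alone it was -0.99 and not called.

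Epithelial genes, which build tight junctions, adherens junctions and cell polarity, fell in Huh7 in most cases. Of 18 members described (of 28 listed) 12 fell and 2 rose in Huh7, 1 fell and 3 rose in Hep3B, and the difference was called lower for 11 and higher for 1. The medians were -1.24 and 0.17, and the median difference was -1.48.

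CLDN1, a claudin of tight junctions (chr3:190023496-190040235), fell from 1401 and 1569 CPM in Huh7 DMSO to 242 and 334 in Huh7-IR and 281 and 310.1 in Huh7-CR cells. In Hep3B it was at 879 and 808 CPM in DMSO, 1007 and 1059.8 in IR and 844 and 715 in CR cells. The Huh7 groups lay apart and those of Hep3B did not change by a called amount (-2.35 and 0.09, difference -2.44, SE 0.23, limma adjusted p = 1.13e-05). MARVELD3, another tight junction protein, went from 17.7 and 22.7 CPM to 0.526 to 3.15 in Huh7 and from 23.4 and 25.9 to 24.7 to 27.5 in Hep3B. CGN, the tight junction adaptor cingulin, changed by -3.20 and -0.66.

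CDH1, or E-cadherin, was at 69.2 and 282 CPM in Huh7 DMSO, 21.9 and 39.02 in Huh7-IR and 57.6 and 95.4 in Huh7-CR cells. Its Hep3B values were 119.5 and 169 CPM in DMSO and 226 to 327 in resistant cells. The DMSO libraries of Huh7 were far apart, and the second Huh7-CR library exceeded the first DMSO library. The Huh7 change was -1.56 (limma adjusted p = 0.00814) and that of Hep3B 1.00 (adjusted p = 0.0743), with a difference of -2.57 (adjusted p = 0.00614). That difference was -1.20 against parental cells and -1.75 in CR cells alone, and it was not called in either case. CDS1, an enzyme that makes CDP-diacylglycerol for phosphatidylinositol synthesis, was the opposite member, at -1.08 and 1.05. It lost a call without Huh7 DMSO replicate 2 (Huh7 -0.79, adjusted p = 0.0807) and without Hep3B DMSO replicate 1 (Hep3B 0.99, adjusted p = 0.0766), and against parental cells its Huh7 change was -0.01.

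Keratins, the intermediate filaments of epithelial cells, gave 5 members (of 10 listed) with medians of -0.80 and 0.23. In Huh7 3 fell and 1 rose, and in Hep3B 1 fell and 1 rose. Only KRT18, the type I keratin of hepatocytes, had a called difference (-1.01 and 0.23), and it was lost without Huh7 DMSO replicate 1 or either Hep3B DMSO library (-1.28 to -1.10), and with CR cells alone (-0.85). The median difference of the 5 was -0.74, and -0.39 without Huh7-IR replicate 1.

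Genes of fatty acid oxidation, the breakdown of fatty acids in mitochondria and peroxisomes, and of ketogenesis had called changes in Huh7 that were all falls. Of 17 members described (of 20 listed) 9 fell and none rose in Huh7, 3 fell and 1 rose in Hep3B, and the difference was called lower for 9 and higher for 1. The medians were -0.63 and 0.17. CPT1A (chr11:68522088-68611878) is the rate-limiting enzyme for the entry of fatty acids into mitochondria. It was at 109 and 195 CPM in Huh7 DMSO, 57.6 and 10.7 in Huh7-IR and 40.4 and 44.2 in Huh7-CR cells. In Hep3B it was at 72.00 and 63.97 CPM in DMSO, 104 and 93.9 in IR and 163 and 163 in CR cells. All resistant libraries were below DMSO in Huh7 and above it in Hep3B. The change was called in Huh7 (-2.12) and not in Hep3B (0.89, adjusted p = 0.141), and the difference was -3.02 (SE 0.66, limma adjusted p = 0.00406).

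ETFA and ETFB, the subunits of the flavoprotein that takes electrons from acyl-CoA dehydrogenases, fell together in Huh7. ETFA changed by -1.31 in Huh7 and -0.15 in Hep3B, and ETFB by -2.15 and -0.64. ACADVL, the very long chain acyl-CoA dehydrogenase, changed by -0.87 and 0.17. The differences of ETFB and ACADVL lost their call without Hep3B DMSO replicate 1 (-1.36 and -0.86) or Huh7 DMSO replicate 2 (-1.15 and -0.71), and with IR cells alone (-1.33 and -0.88). Against parental cells that of ACADVL was -0.70, with no call. ACAA1, a thiolase of peroxisomes, was the exception with a difference of 1.07, with changes of -0.62 in Huh7 and -1.69 in Hep3B, and its call was lost without Hep3B DMSO replicate 2 (0.92).

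Drug and bile acid transporters gave 9 members (of 19 listed) with medians of -1.36 and 0.44. The median difference was smaller in size than the gap between these medians, at -0.96. In Huh7 5 fell and 1 rose, in Hep3B 3 fell and 4 rose, and 3 differences were called, all lower in Huh7. ABCB1, the multidrug efflux pump P-glycoprotein (chr7:87132333-87342639), was at 97.3 and 69.3 CPM in Huh7 DMSO, 20.01 and 29.1 in Huh7-IR and 17.9 and 35.8 in Huh7-CR cells. The Hep3B levels were 42.5 and 47.98 CPM in DMSO, 167 and 177 in IR and 43.7 and 121 in CR cells. The first Hep3B-CR library lay between the DMSO libraries, so the rise in Hep3B was clear in IR cells and not in CR cells. The changes of -1.69 and 1.29 differed by -2.98 (SE 0.49, limma adjusted p = 6.45e-04), and without Hep3B DMSO replicate 1 the Hep3B change was 1.21 with an adjusted p of 0.0752. The opposite call of ABCB1 was also lost against parental cells, where the Hep3B change was 0.42 (adjusted p = 0.362), and with CR cells alone, where it was 0.68 (adjusted p = 0.197).

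ABCC4, an exporter of cyclic nucleotides and bile acids, rose in Hep3B alone, from 35.2 and 35.97 CPM to 89.98 to 171, and was at 79.4 and 75.1 CPM in DMSO and 62.7 to 91.96 in resistant cells of Huh7. Its changes were -0.06 and 1.88 (difference -1.95, limma adjusted p = 9.17e-05). ABCC1, a related exporter of glutathione conjugates, changed by -0.16 and 0.80, and its difference lost the call without Hep3B DMSO replicate 1 or Huh7 DMSO replicate 2 (-0.81 and -0.80). Against parental cells the ABCC1 difference was -0.25.

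NF-kB targets and cytokines went the other way, with medians of 0.44 in Huh7 and -0.40 in Hep3B over 13 members (of 22 listed). In Huh7 5 rose and 3 fell, in Hep3B none rose by a called amount and 5 fell, and the difference was called higher for 5 and lower for 1. CXCL5, a chemokine that attracts neutrophils, was at 63.02 and 33.6 CPM in Huh7 DMSO, 61.3 and 85.4 in Huh7-IR and 119.7 and 196 in Huh7-CR cells. In Hep3B it was at 146 and 130.1 CPM in DMSO, 33.2 and 53.9 in IR and 46.2 and 55.2 in CR cells. The Huh7 libraries overlapped and those of Hep3B did not. The changes were 1.18 and -1.56 (difference 2.73, SE 0.43, limma adjusted p = 5.12e-04). Without Huh7 DMSO replicate 2 the Huh7 change was 0.73 with an adjusted p of 0.103, and against parental cells it was -0.36.

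SOD2, the mitochondrial superoxide dismutase, was the second opposite member, at 1.41 and -0.70, and its Hep3B call was lost without either Hep3B DMSO library, IR replicate 1 or CR replicate 1 (-0.78 to -0.61) and against parental cells (-0.26). TNFAIP3, or A20, a feedback inhibitor of NF-kB, changed by 1.44 and -0.26, and RELB, a subunit of the noncanonical NF-kB dimer, by 1.74 and 0.15. The rise of both was called in Huh7 alone, but against parental cells neither difference was called (0.63 for TNFAIP3 and 1.18 for RELB). The RELB difference also lost its call without Huh7 DMSO replicate 1 (1.18) and with CR cells alone (0.83). CCL20, a chemokine for lymphocytes and dendritic cells, fell in both lines and further in Huh7 (-4.85 and -2.63), and its difference lost the call without either Hep3B DMSO library or Huh7 DMSO replicate 2 (-2.25 to -1.67) and with CR cells alone (-0.51). The median difference of the list was 0.66, and 0.35 without Huh7-IR replicate 2.

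Targets of Wnt and beta-catenin gave 8 members (of 17 listed), with medians of 0.18 in Huh7 and -1.08 in Hep3B. Their median difference was only 0.49, much smaller than the gap between these medians. In Hep3B 5 fell and 1 rose, and in Huh7 3 fell and 2 rose, with the difference called higher for 3 and lower for 2. CTNNB1, which encodes beta-catenin itself, was at 603 and 556 CPM in Hep3B DMSO and 238 to 265 in resistant Hep3B cells, with no overlap, and at 921 and 730.1 and 704 to 978 CPM in Huh7. Its changes were 0.04 and -1.19 (difference 1.23, SE 0.18, limma adjusted p = 3.09e-04). TBX3, a T-box factor, changed by 0.32 and -0.97, and RNF43, a ubiquitin ligase that removes Wnt receptors, by 1.02 and -0.24.

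The differences called lower in this list were those of DKK1, a secreted Wnt antagonist (-3.45 and -1.38), and GPC3, a proteoglycan that marks hepatocellular carcinoma (-5.59 and -3.83). Both fell in both lines. With CR cells alone the DKK1 difference was -0.69 and that of TBX3 0.80, neither of them called. The RNF43 call was lost without Hep3B DMSO replicate 2 (1.13). That of GPC3 was lost without any 1 of 7 libraries (both Hep3B DMSO, Hep3B-CR 2, Huh7 DMSO 2, Huh7-IR 2 and both Huh7-CR), with differences from -1.83 to -1.51, and in CR cells alone its difference was 0.88.

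Lysosomal genes that changed in Huh7 mostly rose, while in Hep3B some rose and others fell. Of 28 members described (of 31 listed) 13 rose and 2 fell in Huh7, 5 rose and 6 fell in Hep3B, and the difference was called higher for 12 and lower for 2. The medians were 0.51 and 0.06, and 4 members moved in opposite ways: CTSA, TPP1, NEU1 and CTSD. Many lysosomal genes carry the letters CACGTG near their start site, the core bound by the TFEB and TFE3 factors. That motif, which reads the same on both strands, occurred in the 250 bases upstream of 7 of 21 members that had a promoter in the table (33.3%), against 9.4% of the 8204 genes described that had one. The share was 13.7% among genes that rose in Huh7 and fell in Hep3B and 9.86% among those with the reverse pattern.

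The 150 bases upstream of the start sites of the 4 opposite members are shown because these genes had opposite calls of the same orientation. The motif is in capitals, 5′ to 3′ on the strand of the gene (RefSeq, GRCh38.p14). The part of the motif in these changes was not tested. CTSA lies at chr20:45891185-45891334 (plus strand), NEU1 at chr6:31862822-31862971, CTSD at chr11:1763928-1764077 and TPP1 at chr11:6619423-6619572 (all minus strand).
CTSA: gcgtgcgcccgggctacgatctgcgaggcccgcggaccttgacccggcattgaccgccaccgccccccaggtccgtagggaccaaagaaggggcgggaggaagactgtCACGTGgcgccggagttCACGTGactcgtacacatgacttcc
NEU1: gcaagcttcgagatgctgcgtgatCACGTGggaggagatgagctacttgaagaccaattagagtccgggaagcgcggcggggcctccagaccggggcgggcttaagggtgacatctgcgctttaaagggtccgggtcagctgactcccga
CTSD: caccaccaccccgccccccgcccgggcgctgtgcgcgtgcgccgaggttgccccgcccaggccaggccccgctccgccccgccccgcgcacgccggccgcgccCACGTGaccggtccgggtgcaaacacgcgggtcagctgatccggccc
TPP1: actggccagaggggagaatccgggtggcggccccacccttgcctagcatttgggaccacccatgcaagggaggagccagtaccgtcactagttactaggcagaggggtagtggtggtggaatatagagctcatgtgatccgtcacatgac
CTSA held the motif at 42 and 25 bases before the start, NEU1 at 126 and CTSD at 47, counted to the first base of the motif, and these letters were not in the TPP1 window.

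CTSA, or protective protein cathepsin A, forms a complex with the sialidase NEU1. It was at 115 and 112 CPM in Huh7 DMSO, 309.9 and 368 in Huh7-IR and 228 and 301 in Huh7-CR cells. Hep3B cells held 196 and 186 CPM in DMSO, 122 and 102 in IR and 133 and 152 in CR cells. No resistant library overlapped with DMSO in either line (1.38 and -0.60, difference 1.98, SE 0.18, limma adjusted p = 9.88e-06). NEU1 was at 66.3 and 118 CPM in Huh7 DMSO and 149.6 to 265 in resistant Huh7 cells, and at 342 and 309.8 and 202 to 236 in Hep3B, so its groups also lay apart.

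TPP1, a tripeptidyl peptidase (chr11:6633999-6640679, GRCh37), was at 85.7 and 133 CPM in Huh7 DMSO, 284 and 261 in Huh7-IR and 151 and 167 in Huh7-CR cells, against 178 and 196, 67.6 and 58.6 and 123 and 219.7 in Hep3B. CTSD, the aspartic protease cathepsin D (chr11:1773982-1785803, GRCh37), was at 118 and 187, 375 and 503 and 99.7 and 140.0 CPM in Huh7 and at 231 and 242, 97.03 and 82.1 and 167 and 235 in Hep3B. In Hep3B the IR libraries of both genes were below DMSO, while the CR libraries overlapped with it, and in Huh7 those of CTSD overlapped too. The changes were 0.96 and -0.87 for TPP1 and 0.61 and -0.82 for CTSD.

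These opposite calls were fragile. In edgeR and DESeq2 the Huh7 change of CTSD was 0.50 (adjusted p = 0.107) and 0.51 (adjusted p = 0.0733), with no call. After quantile normalization it was 0.59 in limma (adjusted p = 0.0532), also with no call. The Hep3B change of CTSA was smaller than 0.58 in size without Hep3B DMSO replicate 1, IR replicate 2 or CR replicate 1 (-0.56 to -0.53), and TPP1 lost its Hep3B call without Hep3B DMSO replicate 2 (-0.80, adjusted p = 0.0582). NEU1 lost it without any 1 of 8 libraries (all of Hep3B and both Huh7-CR), with adjusted p from 0.0517 to 0.208, and CTSD lost a call without any 1 of 7, where its Huh7 change was as low as 0.28. Against parental cells the Hep3B changes were -0.18 for CTSA, -0.13 for TPP1, -0.25 for NEU1 and -0.01 for CTSD, and the median difference of the list was 0.94 with IR cells alone, 0.03 with CR cells alone and 0.34 without Huh7 DMSO replicate 1. The differences of TPP1 and CTSD were 0.75 and -0.08 with CR cells alone, with no call. SMPD1, the acid sphingomyelinase, fell in Hep3B (-0.82) and was at 0.46 in Huh7, and its difference lost the call without Hep3B DMSO replicate 1 (1.16), against parental cells (0.54) and with CR cells alone (0.91).

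The genes were last placed on the chromosomes (GRCh37) in 198 bins of 10 Mb with at least 20 genes each. In 19 bins, joined to 15 regions, the median changes of the lines had opposite signs and the median difference was at least 0.58 in size. They held 725 of the 9801 genes with a position (7.4%) and 29 of the 151 opposite genes (19.2%), and 4.0% of the genes inside were opposite against 1.34% outside, which follows in part from how the regions were chosen. In 7 regions with 451 genes the Huh7 median was higher, and in 8 regions with 274 genes it was lower.

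The largest region covered chr3:30000001-60000000 and 166 genes. Its median was 0.14 in Huh7 and -0.80 in Hep3B, where only 6 of 166 genes were above 0. The 4 resistant Hep3B libraries lay between -0.82 and -0.78 and the Hep3B parental libraries at 0.04 and -0.08, so IR and CR cells were alike and parental cells resembled DMSO cells. The difference was called higher for 123 of the 166 genes, and 9 of them were opposite, GNAI2 among the leading genes and RASSF1, RBM5, PTPN23, GOLGA4, LAMB2, ZDHHC3, GORASP1 and ABHD14B, named after their values were seen. CTNNB1 and ACAA1 also lie there.

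On chr11:1-10000000, 77 genes had medians of 0.31 and -0.58, and 8 were opposite, among them TPP1 and CTSD. Here the regimens differed: the Hep3B-IR libraries were at -0.78 and -0.92 and the Hep3B-CR libraries at -0.30 and -0.34, with parental Hep3B at -0.28 and -0.38. A region of chr13:20000001-30000000 with 33 genes showed the same split in Hep3B, with medians of -0.71 and -0.69 in IR cells and -0.02 and -0.06 in CR cells. Of the regions lower in Huh7, the one with the most genes was chr5:60000001-80000000, with 81 genes at -0.42 and 0.26.

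For each gene the median deviation of the 40 nearest genes, from their means over the 16 libraries, was subtracted in each library. This step, added after seeing the data, left 72 of the 156 genes with opposite calls and 142 with a called difference. GNAI2 then changed by 1.04 and -0.14, CTSD by 0.29 and -0.31 and NEU1 by 0.68 and -0.46, SESN3 had 0.46 in Huh7 and CDS1 0.48 in Hep3B, and the differences of CTNNB1 and ACAA1 were 0.28 and 0.25, with no call. Those of TBX3 (0.64) and RNF43 (0.88) were not called either, so all 3 Wnt differences that had been called higher in Huh7 were lost. The same step ended the difference calls of SMPD1 (0.71), CTSD (0.60), ACADVL (-0.65) and GPC3 (-1.76). TPP1, CTSA, MERTK, CD47 and SPRY4 kept their opposite calls. The part of chromosome position in the gene changes was not tested further.

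**Figure D4:**
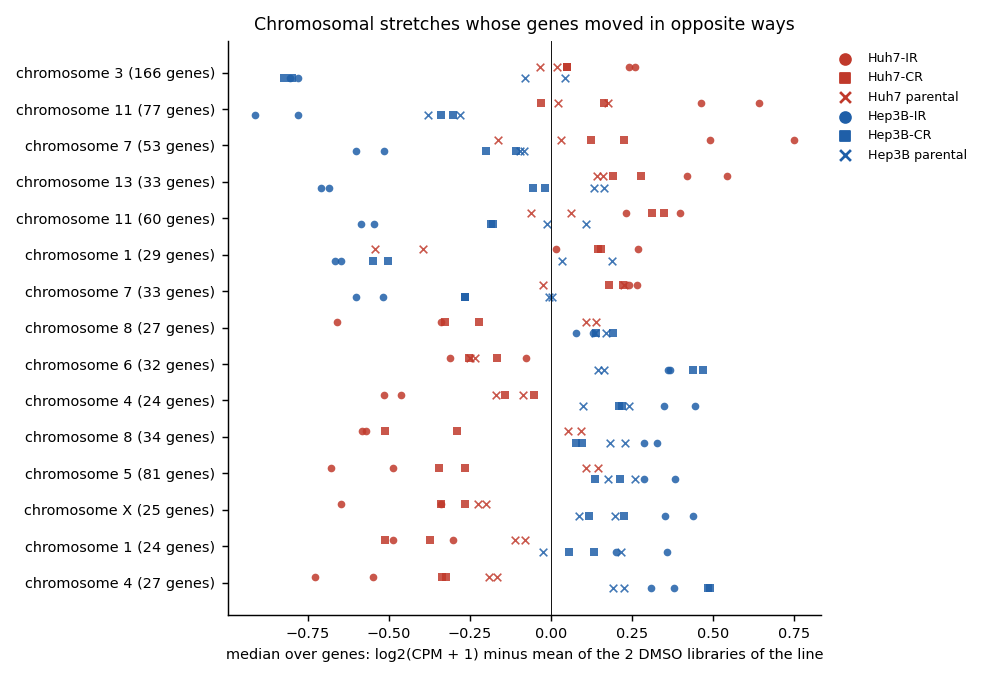
Median over the genes of each of the 15 regions of log2(CPM + 1) minus the DMSO mean of the line (x axis), in each IR (circle), CR (square) and parental (cross) library of Huh7 (red) and Hep3B (blue). The region of chromosome 3 lies at -0.82 to -0.78 in the 4 resistant Hep3B libraries and near 0 in the parental ones, and in several other regions the IR circles lie farther from 0 than the CR squares.

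Several lists moved in the same direction in both lines. Cholesterol synthesis fell in both lines, with medians of -1.60 and -1.60, 21 of 22 members called lower in each and no called difference. Targets of ATF4, the factor of the amino acid and stress response, rose in both (1.46 and 1.28, 16 of 20 called higher in each, 3 differences called), and mitosis genes fell in both (-1.11 and -1.32, 27 and 32 of 33 called lower, 3 differences called). Plasma proteins fell in both and further in Huh7, with medians of -5.67 and -3.23, 15 and 14 of 15 members called lower and 9 differences called lower. Their median difference of -2.03 was larger in size than that of any of the 9 lists described, so they were alike in direction only.

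Of the genes the study followed, HIF1A, the oxygen-regulated subunit of the hypoxia-inducible factor, had a called difference. It was at 778 and 579.5 CPM in DMSO and 437 to 791 in resistant cells of Huh7, which overlapped, and at 287 and 261 and 407 to 650.4 in Hep3B, which did not. The changes were -0.21 and 0.92 (difference -1.13, SE 0.27, limma adjusted p = 0.00692). The HIF1A difference was -0.71 with CR cells alone and -0.98 with DMSO replicate 2 alone in both lines, and was not called in either case. EGLN1, the prolyl hydroxylase that marks HIF1A for degradation, fell in both lines (-1.63 and -1.11) with a difference of -0.53 that was not called, though it was called with IR cells alone (-1.39) and was 0.34 with CR cells alone. SLC2A1, the glucose transporter GLUT1, changed by 1.31 and 2.30 and HK2, a hexokinase, by -0.18 and -0.52, with no called difference (limma adjusted p = 0.0626 and 0.354). The SLC2A1 difference of -0.99 was near the threshold: it was called in DESeq2 (-0.99), after quantile normalization (-1.06), after a GC correction with or without a replicate block (-1.02) and against the mean of DMSO and parental cells (-0.98). It was also called without Huh7 DMSO replicate 1, Hep3B DMSO replicate 2 or Hep3B-IR replicate 2 (-1.38 to -1.18). USP29, a deubiquitinase, had at most 0.0287 CPM and was not tested.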

How the data were processed

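RNA sequencing of 16 libraries (8 groups of 2) of human Huh7 and Hep3B cells was analysed, 12 of them in the comparison and the 4 parental libraries as an alternative reference. The authors deposited 1 table of CPM values per gene, made by aligning reads to hg19 with STAR and counting them over RefSeq exons with QuasR. The methods text and the labels differ on the library kit, the sequencer and the number of replicates, and the labels were followed. CPM values times the library total gave whole reads for 100% of values, within 0.05 reads, and 46613302 to 76860251 reads per library, so low counts are precise only to counting error. 0 sample columns were left unused.

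Values were taken as log2(CPM + 1), a scale that understates the changes of low genes. The 15019 genes with at least 1 CPM in 2 or more libraries were fitted with limma 3.58.1 (R 4.3.3; variance trend, all 16 libraries in 1 fit, 1 mean per group), and p-values were adjusted by Benjamini-Hochberg over all of them. Counts were taken over the 10009 genes with at least 5 CPM in all 4 DMSO libraries. A call needed 0.58 on the log2 scale and an adjusted p under 0.05. "Opposite" means called in both lines with opposite signs. The count test on the recovered reads, edgeR 4.0.16, called 1293 differences higher and 1498 lower in Huh7 and 63 and 97 opposite genes. These were not all the same genes: of the 156 opposite genes of limma, edgeR called 120 opposite again. DESeq2 1.42.0, a further alternative, called 130 of them so. The difference between the lines stayed called for all 156 in both. On simulated data limma recovered 24% of 100 genes whose difference between the lines was 1 on the log2 scale and 81% of 100 with a difference of 2, among 15019 genes. The changed genes were drawn from all genes fitted, low ones included, so these shares are not those of the 10009 genes described.

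The genes, the lists and the comparison were chosen with earlier results of these data known. Named genes were the 12 opposite genes of each orientation with the largest smaller change and no overlap between libraries, the 4 largest and 4 lowest differences, up to 5 members with the largest differences of each described list, the genes the study followed, and markers, 1 of which is not reported here. Genes outside this rule are said to be chosen after their values were seen. Promoter sequences came from RefSeq (GRCh38.p14) and gene positions from GENCODE on GRCh37. The 76 lists held 5 genes that matched no symbol.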

Additional observations from a re-analysis of the deposited data

Results flagged for a closer look

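For 68 of the named genes the difference between the lines passed the test of the difference itself, the contrast of both changes in limma, and each is listed here for that reason with its difference on the log2 scale. Positive values mean a higher change in Huh7. No explanation was weighed.

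Among genes that rose in Huh7 and fell in Hep3B the difference was 4.22 for TIMP3, 3.14 for RARB, 5.48 for CD47, 2.91 for JCAD, 2.49 for PTPRG and 2.46 for CELSR2. It was 3.63 for SESN3, 2.11 for GNAI2, 1.81 for FBXO10, 2.12 for RNF145, 2.23 for CAPRIN2 and 1.91 for TARBP1. Among genes that fell in Huh7 and rose in Hep3B it was -3.68 for MBOAT1, -3.79 for MERTK, -3.47 for PITPNM3, -3.23 for AQP3, -3.03 for CCDC68 and -2.58 for SEL1L3. SPRY4 had -2.83, GMDS -2.94, CCN2 -2.41, MECOM -2.48, MYO1D -6.61 and CCAT1 -4.33.

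Of the largest differences that were not opposite, PEG10 had 5.78, PODXL 4.95, IGF2 4.58, APOC4-APOC2 -5.66, APOC2 -5.65 and APOA2 -5.36. HIF1A had -1.13.

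Fatty acid oxidation gave -3.02 for CPT1A, -1.51 for ETFB, -1.17 for ETFA, 1.07 for ACAA1 and -1.04 for ACADVL. Transporters gave -2.98 for ABCB1, -1.95 for ABCC4 and -0.96 for ABCC1. In the ERK list it was -2.80 for ETV4, -2.43 for DUSP6, -2.25 for DUSP5 and -2.23 for SPRY1. Receptor kinases gave -2.97 for FGFR3, -2.36 for PDGFRA, -1.63 for INSR and -1.36 for ERBB2.

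Epithelial genes gave -3.32 for MARVELD3, -2.57 for CDH1, -2.54 for CGN, -2.44 for CLDN1 and -2.13 for CDS1, and KRT18 had -1.24. Wnt targets gave -2.07 for DKK1, -1.76 for GPC3, 1.29 for TBX3, 1.26 for RNF43 and 1.23 for CTNNB1. NF-kB targets gave 2.73 for CXCL5, -2.22 for CCL20, 2.11 for SOD2, 1.69 for TNFAIP3 and 1.59 for RELB. Lysosomal genes gave 1.98 for CTSA, 1.83 for TPP1, 1.64 for NEU1, 1.43 for CTSD and 1.28 for SMPD1.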

How the results depend on the processing

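Over 71 named genes and 33 alternatives, 2240 of 2343 differences kept their direction and their side of the threshold, 87 lost the call, 13 gained it and 3 turned, all 3 with CR cells alone (GPC3 0.88, CTSD -0.078, EGLN1 0.34). For 46 genes the difference kept its direction and its side of the threshold under every alternative run. These counts do not cover the opposite calls. Of the 33 named opposite genes, 16 lost the opposite call against parental cells, 10 with CR cells alone and 7 with IR cells alone. Subtracting neighbouring genes ended it for 5 and edgeR for 2. Another scaling moved the median Huh7 change of all genes from 0.05 to at most -0.06 (edgeR) and the Hep3B one from 0.04 to at most -0.04, and 46.3% to 49.4% of called differences were higher in Huh7. The cause of the changes below was not tested, apart from fewer genes or samples where a setting removes them.

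The 60 genes that rose in Huh7 and fell in Hep3B became 39 with a pseudocount of 4 CPM, 92 among genes with a mean of 5 CPM, 197 with IR cells alone, 34 with CR cells alone and 35 after subtracting neighbouring genes. Without 1 library they numbered 38 to 80, with 38 without Hep3B DMSO replicate 1, and the 96 of the other orientation 75 to 106. Differences higher in Huh7 numbered 835 with CR cells alone, 896 after subtracting neighbours and 949 to 1557 without 1 library, and lower ones 1023 to 1580. The counts of each line's own changes without 1 library were 3593 to 4012 in Huh7 and 2453 to 3127 in Hep3B.

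Median differences of the lists moved as follows. Against parental cells that of the ERK list was -0.56, of receptor kinases -0.75 and of epithelial genes -0.99. With DMSO replicate 1 alone the ERK list gave -0.49, and with DMSO replicate 2 alone the lysosome list 0.39. After subtracting neighbours the ERK list gave -1.09, epithelial genes -1.03 and Wnt targets 0.27. Keratins gave -0.29 with a pseudocount of 4 CPM, NF-kB targets 0.98 among genes with 1 CPM, and the lysosome list 0.94 with IR and 0.034 with CR cells. Without 1 library the ranges were -0.91 to -0.54 (ERK), -1.28 to -0.78 (receptor kinases), -1.69 to -1.26 (epithelial), -1.10 to -0.39 (keratins), 0.37 to 0.60 (Wnt), 0.35 to 0.94 (NF-kB) and 0.34 to 0.74 (lysosome). Fatty acid oxidation and transporters kept their direction under each alternative, at -0.83 to -0.65 and -1.19 to -0.74 without 1 library.

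Replicate numbers are the only link between libraries of different groups. Deviations of same-numbered libraries from their group means had a Pearson r of -0.197 to 0.503 over 15 pairs of groups, so the numbers were not taken as a pairing. With a replicate block the differences numbered 1416 and 1455 and the opposite genes 58 and 96, and with the block and a GC correction 60 and 94. Subtracting neighbours and the single DMSO replicates were chosen after seeing the data. With 2 libraries a group, changes of moderate size are often missed.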

Other observations

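Lists outside the 9 described also differed in degree. Complement genes fell further in Hep3B, with medians of -1.66 in Huh7 and -2.76 in Hep3B, and 7 of 12 differences were higher in Huh7. Transcription factors of hepatocytes fell further in Huh7 (-1.88 and -0.81, 12 of 18 differences lower). Proteasome subunits had medians of -0.46 and -0.01 over 31 members, with 13 differences lower in Huh7. Of 9 members of the MYC network, 4 differences were higher in Huh7 and none lower by a called amount. These lists were looked at after their values were known, and no test was run on them.

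NRF2 targets, the genes of the antioxidant response, had 8 of 18 differences lower in Huh7 and 3 higher, with medians of -0.17 and 0.23. ME1, the cytosolic malic enzyme, and GSR, the glutathione reductase, moved in opposite ways and were chosen after their values were seen. ME1 was at 298 and 342 CPM in Huh7 DMSO and 73.7 to 108 in resistant Huh7 cells, against 88.6 and 84.00 and 145 to 203 in Hep3B (-1.77 and 0.96). GSR was at 313 and 358 and 172 to 249 CPM in Huh7 and at 152 and 159.8 and 224 to 273 in Hep3B (-0.70 and 0.64).

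The regimens also differed. The difference between the lines was not the same in IR and CR cells for 2534 genes (25.3% called), 58 of the 156 opposite genes among them. Across 9928 genes with a GC value, the share of G and C had a Spearman correlation of 0.11 with the difference, given as a description, and the median GC content was 50.01% in genes that rose in Huh7 and fell in Hep3B, 45.4% in those with the reverse pattern and 46.5% in all genes described. All 15 chromosome regions kept both signs with a GC correction, with differences of 0.52 to 0.98 in size, and 14 of 15 did so against parental cells.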
